A study of Mus musculus with 12 samples.

Results

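The 39 genes described here encode the enzymes and loading factors that copy DNA in S phase, with the enzymes that make the deoxynucleotides. They were chosen by symbol in a table of 31801 gene entries, in which each of the 39 occurred once, and all 39 were among the 10277 genes that reached 1 FPKM in at least 3 libraries. FPKM divides the reads of a gene by the length of its model and the depth of the library. Levels can thus be set side by side between genes only as far as that length fits the transcript present. The 12 libraries hold RNA of RAW264.7, a macrophage-like mouse cell line labelled wild type, and fall into 4 groups of 3. The groups were LPS (50 ng/ml) together with a purified antibody to CD36 at a dilution of 1 in 100, LPS alone, the antibody alone, and untreated cells. The labels give no treatment time, no isotype control antibody and no word on separate cultures, so each p-value measures only the spread between these libraries, and all groups come from 1 cell line. LPS (lipopolysaccharide) comes from the outer membrane of bacteria and is sensed by TLR4, and CD36 is a lipid-binding scavenger receptor.

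Copying of a genome starts at origins. There the origin recognition complex, CDC6 and CDT1 load the MCM2 to MCM7 helicase in G1, and CDC45 with the GINS complex turns it into an active fork in S phase. DNA polymerase alpha with primase starts each strand, polymerases epsilon and delta extend it on the PCNA ring, and FEN1 and DNA ligase I join the lagging strand pieces. Many of these genes are transcribed under E2F factors, which RB proteins hold back outside the cycle. RAW264.7 cells divide continuously in culture, whereas most macrophages in tissue do not, and LPS is known to slow the division of macrophages.

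The libraries held 30070450 to 54137810 reads, recovered from the steps of the FPKM values, and 172 to 31647 reads stood behind each value of the 39 genes. All 8 macrophage markers averaged at least 1 FPKM in every group, and 21 markers of other cell types reached at most 0.607 FPKM, with 11 of them at 0 in every library. Tnf, which encodes the cytokine TNF, averaged 1252 ± 64.7 FPKM in LPS+anti-CD36 libraries, 1176 ± 134 FPKM in LPS libraries, 67.5 ± 4.41 FPKM in anti-CD36 libraries and 52.5 ± 3.66 FPKM in untreated libraries (SD, n = 3 each). Il1b (interleukin 1 beta), Nos2 (inducible nitric oxide synthase) and Cd36 were also higher with LPS, by 8.19, 5.40 and 2.53 on the log2 scale in LPS against untreated libraries (limma, adjusted p = 2.29e-14, 8.43e-13 and 3.06e-08). Each library's deviation from the mean of all 12 libraries was compared with gene length across 10093 genes. The Spearman rho lay between -0.33 in LPS+anti-CD36 replicate 1 and 0.43 in untreated replicate 3. For length it was -0.33, -0.26 and -0.14 in LPS+anti-CD36 libraries and -0.30, -0.02 and -0.20 in anti-CD36 libraries. In LPS libraries it was -0.13, 0.29 and 0.36, and in untreated libraries -0.16, 0.16 and 0.43. With GC content the rho lay between -0.47 in LPS replicate 3 and 0.44 in anti-CD36 replicate 1. The part of these trends in the results below was not tested beyond the values given beside them.

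E2F factors bind an octamer found near the start sites of several replication genes. RefSeq promoters (build GRCm38.p6, 250 bases before to 50 after the start site) were matched for 32 of the 39 genes. The octamers searched were TTTCCCGC, TTTCGCGC, TTTGCCGC and TTTGGCGC on both strands. At least 1 of them stood in 12 of the 32 promoters (37.5%), against 626 of all 27025 promoters (2.32%). The median GC content was 57.5% in the 32 promoters and 52.67% in all promoters, and its part in these shares was not tested. Only the first listed start of each gene was searched, and Mcm7, Pold2, Fen1 and Lig1 have more than 1. The 150 bases before the start site are printed for 5 genes, chosen for what their transcripts did below: Mcm6 holds the most octamers, Cdc6 and Gins3 fell with 1 octamer each, Orc1 has an octamer and was not called lower, and Tk1 fell the most and has no octamer. Capitals mark the octamers on either strand, and in Mcm6 a pair on opposite strands overlaps, so its capitals run together.
Mcm6, chr1:128359706-128359855, minus strand: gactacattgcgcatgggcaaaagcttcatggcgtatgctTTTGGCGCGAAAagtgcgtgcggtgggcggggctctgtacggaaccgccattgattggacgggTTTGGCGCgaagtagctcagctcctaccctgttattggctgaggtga
Cdc6, chr11:98908001-98908150, plus strand: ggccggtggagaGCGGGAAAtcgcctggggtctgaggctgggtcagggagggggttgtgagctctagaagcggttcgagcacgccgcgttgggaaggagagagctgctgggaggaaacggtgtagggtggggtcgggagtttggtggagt
Gins3, chr8:95633409-95633558, plus strand: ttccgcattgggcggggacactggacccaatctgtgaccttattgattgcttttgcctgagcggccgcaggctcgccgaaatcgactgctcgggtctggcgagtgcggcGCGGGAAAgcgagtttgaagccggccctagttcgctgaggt
Orc1, chr4:108579304-108579453, plus strand: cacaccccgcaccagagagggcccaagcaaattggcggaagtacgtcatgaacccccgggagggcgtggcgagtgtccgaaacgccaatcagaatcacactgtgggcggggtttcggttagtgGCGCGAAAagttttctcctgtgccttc
Tk1, chr11:117826015-117826164, minus strand: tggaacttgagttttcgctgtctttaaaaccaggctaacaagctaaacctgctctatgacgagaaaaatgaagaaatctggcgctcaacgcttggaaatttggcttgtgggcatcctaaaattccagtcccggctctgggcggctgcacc
The sequences end at the RefSeq start site, and the GENCODE M21 gene models of Cdc6, Gins3, Orc1 and Tk1 begin within or upstream of the stretch shown. A CCAAT box (CCAAT, both strands) stood in 21 of the 32 promoters (65.6%) and in 37.9% of all promoters, and the E-box CACGTG in 5 (15.6%) and 7.24%. The letters TTTGAA of the CHR element, a site known from genes of mitosis, stood in 4 of the 32 (12.5%) and in 18.1% of all promoters. A match of letters is a description of the sequence and shows no binding.

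With LPS alone, 38 of the 39 genes fell and none rose (97.4% lower, where 33.1% of all genes tested were called lower and 49.8% were called in either direction). A call was a Benjamini-Hochberg adjusted p under 0.05 in limma on log2(FPKM + 1), over all genes tested. Levels in LPS libraries ran between 31.0% (Tk1) and 84.6% (Orc1) of the untreated mean, with a median of 50.1%. The median change of the 39 genes was -0.93 on the log2(FPKM + 1) scale, against -0.14 over all genes tested, and that scale understates the change of genes with low levels. In 37 of the 39 (94.9%) the highest LPS library lay under the lowest untreated library, which held for 32.9% of all genes tested. Orc1 and Rfc1 were the exceptions. In RNA from bulk cultures, fewer cells in S phase and less RNA of these genes per cell cannot be told apart. When libraries were scaled by their median gene instead, 36 of the 39 were called lower (Pold2 and Rfc1 were lost), with a median of -0.79 against -0.0044, and all genes split into 2350 higher and 2226 lower in place of 1710 higher and 3403 lower.

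**Figure D1:**
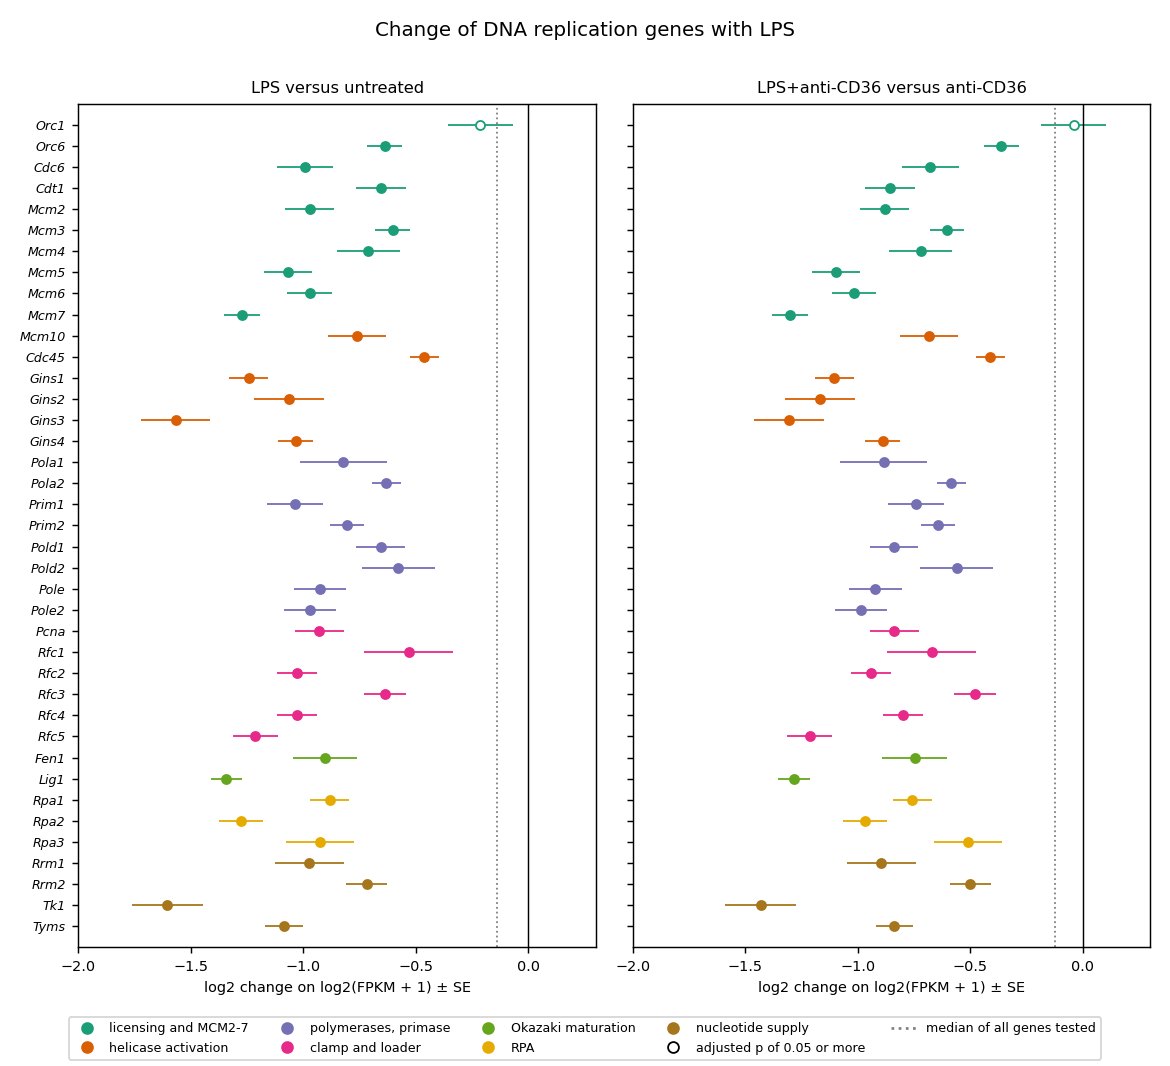
Log2 change of each of the 39 genes on the log2(FPKM + 1) scale in LPS against untreated libraries (left) and in LPS+anti-CD36 against anti-CD36 libraries (right), with bars for the SE, coloured by role; open points have an adjusted p of 0.05 or more and the dotted line is the median of all genes tested. Every point lies left of 0 in both panels, and Orc1 is the only open point in each.

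The 10 licensing genes, which mark and load origins, had 9 members lower and a median change of -0.84. The exception was Orc1, the largest subunit of the origin recognition complex, which had 4.52, 6.64 and 6.06 FPKM in LPS libraries and 5.86, 6.55 and 7.94 FPKM in untreated libraries. Its groups overlapped, and its change of -0.21 ± 0.14 (SE) had an adjusted p of 0.248 and a 95% interval between -0.53 and 0.10. Orc6, the smallest subunit of the same complex, had 16.0, 18.1 and 17.8 FPKM in LPS libraries and 26.7, 26.8 and 29.0 FPKM in untreated libraries, a fall of its own without overlap (-0.64 ± 0.079, adjusted p = 3.7e-05). Cdc6, the ATPase that joins the recognition complex to load the helicase, had 5.74, 7.02 and 7.03 FPKM in LPS libraries and 13.0, 13.9 and 15.4 FPKM in untreated libraries. Its level was thus clearly separated between the groups (-0.99 ± 0.12, adjusted p = 4.15e-05). Cdt1, its partner in loading, had 20.8, 17.2 and 15.8 FPKM in LPS libraries and 29.4, 30.5 and 26.0 FPKM in untreated libraries (-0.66 ± 0.11, adjusted p = 0.000414).

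Mcm2 to Mcm7 encode the 6 subunits of 1 ring, the replicative helicase, and all 6 fell, yet not to the same extent. Mcm7 fell the most of the 6, with 33.3, 32.7 and 28.7 FPKM in LPS libraries and 81.8, 79.5 and 71.9 FPKM in untreated libraries (-1.27 ± 0.080, adjusted p = 1.21e-07). Mcm5 had 51.7, 43.4 and 38.3 FPKM in LPS libraries and 97.9, 97.9 and 85.7 FPKM in untreated libraries (-1.07 ± 0.11, adjusted p = 6.35e-06). Mcm3 fell the least, with 62.7, 59.2 and 54.9 FPKM in LPS libraries and 88.7, 94.3 and 87.0 FPKM in untreated libraries (-0.60 ± 0.076, adjusted p = 4.29e-05). None of these groups overlapped, and the same held for the other 3 subunits. Mcm2 averaged 18.2 ± 2.56 FPKM in LPS and 36.6 ± 3.93 FPKM in untreated libraries (SD, n = 3 each). Mcm4 averaged 37.2 ± 5.01 FPKM in LPS and 61.9 ± 12.2 FPKM in untreated libraries. Mcm6, whose promoter is printed above, averaged 41.1 ± 3.88 FPKM in LPS and 81.6 ± 7.78 FPKM in untreated libraries.

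Summed over the 6 subunits, the level was 231.5 ± 7.63 FPKM in LPS libraries and 441.7 ± 6.77 FPKM in untreated libraries. Mcm3 made up 25.4 ± 0.918% of this sum in LPS libraries and 20.4 ± 0.685% in untreated libraries, without overlap. Mcm7 made up 13.6 ± 0.647% in LPS libraries and 17.6 ± 1.29% in untreated libraries, also without overlap, and 12.6% of its annotated exon bases are shared with neighbouring genes. The ratio of Mcm7 to Mcm3, a pair picked after the values were seen, was 0.531, 0.553 and 0.523 in LPS libraries and 0.923, 0.843 and 0.827 in untreated libraries. The same ratio was 0.601, 0.548 and 0.550 in LPS+anti-CD36 libraries and 0.966, 0.894 and 0.925 in anti-CD36 libraries. The share of Mcm2 overlapped between groups, at 7.84 ± 0.899% in LPS and 8.28 ± 0.918% in untreated libraries.

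**Figure D2:**
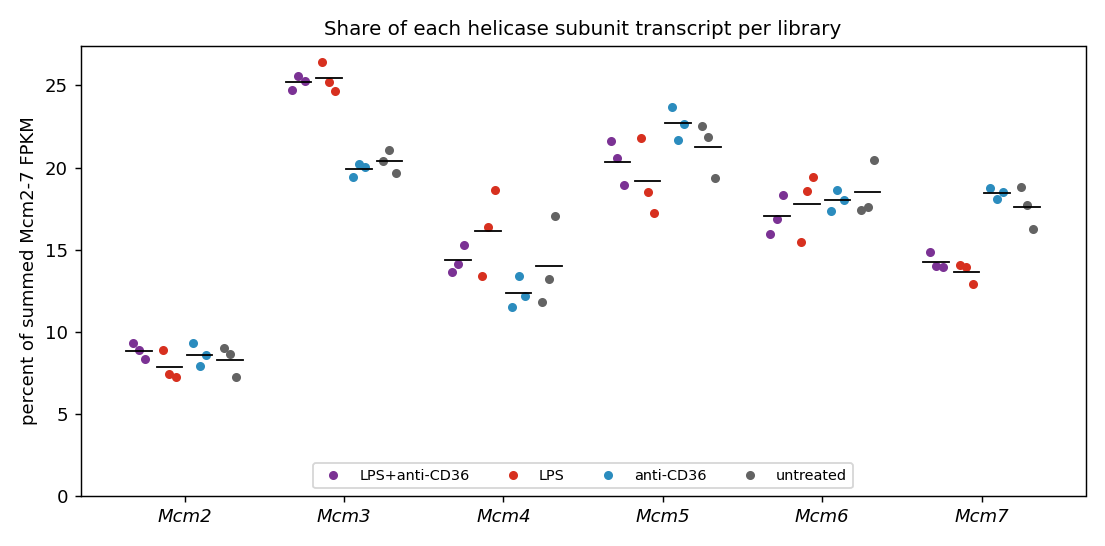
Share of each of the 6 helicase subunits in their summed FPKM, in percent, for the 3 libraries of each group (points) and the group mean (line). The Mcm3 share averages 25.2% and 25.4% in the groups with LPS and 19.9% and 20.4% in those without it, and the Mcm7 share lies lower in both groups with LPS.

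The 6 genes of origin firing and helicase activation all fell, with a median change of -1.05. The spread within this group was wide, because it held both a strong and a weak faller of the 39. Gins3, a subunit of the 4-part GINS complex, had 7.0, 8.96 and 10.5 FPKM in LPS libraries and 24.8, 27.2 and 31.7 FPKM in untreated libraries (-1.57 ± 0.16, adjusted p = 5.86e-06). Gins1, of the same complex, had 12.2, 12.3 and 12.1 FPKM in LPS libraries and 33.7, 28.1 and 29.3 FPKM in untreated libraries (-1.24 ± 0.087, adjusted p = 3.06e-07). Gins2 had 5.84, 4.47 and 3.99 FPKM in LPS libraries and 13.5, 11.3 and 8.54 FPKM in untreated libraries (-1.06 ± 0.16, adjusted p = 0.000142). The Gins2 level is uncertain, since 67.3% of its annotated exon bases also lie in Gse1. Gins4 averaged 17.6 ± 1.31 FPKM in LPS and 37.0 ± 1.96 FPKM in untreated libraries. Cdc45, which binds GINS and the helicase to form the moving fork, changed far less, with 12.9, 13.6 and 12.8 FPKM in LPS libraries and 18.5, 18.3 and 18.7 FPKM in untreated libraries (-0.46 ± 0.065, adjusted p = 0.000106). Its libraries were tight within each group and apart between them. Mcm10, a factor needed for the helicase to start, averaged 5.71 ± 0.720 FPKM in LPS and 10.4 ± 1.60 FPKM in untreated libraries.

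All 8 polymerase and primase genes fell, with a median change of -0.81. Prim1, the catalytic primase subunit that makes the RNA primer, had 7.18, 8.61 and 9.74 FPKM in LPS libraries and 16.5, 18.5 and 20.3 FPKM in untreated libraries (-1.03 ± 0.12, adjusted p = 2.97e-05). Pole2, an accessory subunit of leading strand polymerase epsilon, had 3.41, 4.53 and 5.06 FPKM in LPS libraries and 8.89, 9.40 and 9.84 FPKM in untreated libraries (-0.97 ± 0.12, adjusted p = 2.89e-05). Pole, the catalytic subunit of the same enzyme, had 2.88, 3.89 and 3.57 FPKM in LPS libraries and 6.25, 7.26 and 8.93 FPKM in untreated libraries (-0.93 ± 0.12, adjusted p = 4.52e-05). These subunits of polymerase epsilon thus sat near the bottom of the 39 genes in level, with no overlap between groups. Its small subunit genes Pole3 and Pole4, outside the 39, averaged 44.1 and 25.7 FPKM in untreated libraries. Pola1, the catalytic subunit of polymerase alpha, averaged 5.37 ± 1.61 FPKM in LPS and 10.2 ± 2.57 FPKM in untreated libraries, a wide spread within both groups. Pola2 and Prim2, its accessory and large primase partners, changed by -0.63 ± 0.065 and -0.81 ± 0.075. For lagging strand polymerase delta, catalytic Pold1 changed by -0.66 ± 0.11 and accessory Pold2 by -0.58 ± 0.16, and the Pold2 call was lost under median scaling.

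Pcna, the sliding clamp that tethers polymerases to DNA, had the highest level of the 39 genes in each of the 4 groups. It had 128, 111 and 99.3 FPKM in LPS libraries and 244, 213 and 189 FPKM in untreated libraries, which did not overlap (-0.93 ± 0.11, adjusted p = 2.36e-05). Reads of its annotated pseudogenes Pcna-ps1 and Pcna-ps2 could have been split with it. Of the 5 subunits of replication factor C, which loads the clamp, Rfc5 fell the most, with 11.7, 10.1 and 8.96 FPKM in LPS libraries and 26.0, 27.1 and 22.0 FPKM in untreated libraries (-1.21 ± 0.10, adjusted p = 1.33e-06). Rfc4 had 18.9, 21.2 and 21.7 FPKM in LPS libraries and 43.2, 41.3 and 44.4 FPKM in untreated libraries (-1.03 ± 0.088, adjusted p = 1.69e-06). Rfc2 had 9.48, 8.12 and 8.99 FPKM in LPS libraries and 20.6, 19.6 and 17.1 FPKM in untreated libraries (-1.03 ± 0.089, adjusted p = 1.84e-06). These small subunits were separated between the groups, as was Rfc3 at -0.64 ± 0.094. Rfc1, the large subunit, had 10.7, 15.9 and 19.3 FPKM in LPS libraries and 18.1, 20.0 and 29.4 FPKM in untreated libraries. Its groups overlapped, its change was -0.53 ± 0.20 with an adjusted p of 0.042, and 14 of the 23 alternative settings lost the call, with adjusted p up to 0.152. The change was -0.31 without LPS replicate 1 and -0.33 without untreated replicate 3.

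Lig1, the ligase that seals lagging strand pieces, had the smallest adjusted p of the 39. It had 17.1, 15.9 and 15.2 FPKM in LPS libraries and 41.2, 44.9 and 40.5 FPKM in untreated libraries (-1.34 ± 0.070, adjusted p = 2.44e-08). Fen1, the nuclease that trims the pieces before ligation, had 2.62, 2.38 and 2.10 FPKM in LPS libraries and 6.80, 4.90 and 4.39 FPKM in untreated libraries (-0.90 ± 0.14, adjusted p = 0.000267). Its level is uncertain, since 84.2% of its annotated exon bases also lie in other genes (Gm10143 and Tmem258), and it was the lowest of the 39 genes in every group. The 3 subunits of RPA, the complex that coats single-stranded DNA, all fell. Rpa2 had 18.7, 16.5 and 15.8 FPKM in LPS libraries and 46.4, 45.4 and 36.6 FPKM in untreated libraries (-1.28 ± 0.098, adjusted p = 6.32e-07). Rpa3, the smallest subunit, had 34.1, 26.0 and 25.5 FPKM in LPS libraries and 66.6, 52.9 and 46.4 FPKM in untreated libraries (-0.93 ± 0.15, adjusted p = 0.000333). Rpa1, the large subunit, had 22.7, 24.3 and 23.8 FPKM in LPS libraries and 40.8, 45.5 and 47.1 FPKM in untreated libraries (-0.88 ± 0.087, adjusted p = 5.89e-06). None of the groups overlapped in this set.

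The 4 deoxynucleotide supply genes fell, with a median change of -1.03. Tk1, the thymidine salvage kinase, fell the most of all 39 genes. It had 14.0, 10.4 and 9.82 FPKM in LPS libraries and 43.7, 37.0 and 29.6 FPKM in untreated libraries (-1.61 ± 0.16, adjusted p = 5.71e-06). Tyms, which makes thymidylate from deoxyuridylate, had 6.49, 5.76 and 5.62 FPKM in LPS libraries and 15.2, 13.9 and 12.3 FPKM in untreated libraries (-1.09 ± 0.083, adjusted p = 6.31e-07). Its pseudogene Tyms-ps could share reads with it. Rrm1, the large subunit of ribonucleotide reductase, had 14.2, 20.4 and 21.9 FPKM in LPS libraries and 33, 36.4 and 43.3 FPKM in untreated libraries (-0.97 ± 0.15, adjusted p = 0.00026). Rrm2, the small subunit made in S phase, had 45.5, 53.2 and 51.8 FPKM in LPS libraries and 77.0, 82.2 and 90.1 FPKM in untreated libraries (-0.72 ± 0.090, adjusted p = 4.29e-05). Neither subunit's groups overlapped. Over all roles, the median change was -0.90 for the 12 genes whose promoters hold an E2F octamer and -0.93 for the 20 without it.

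**Figure D3:**
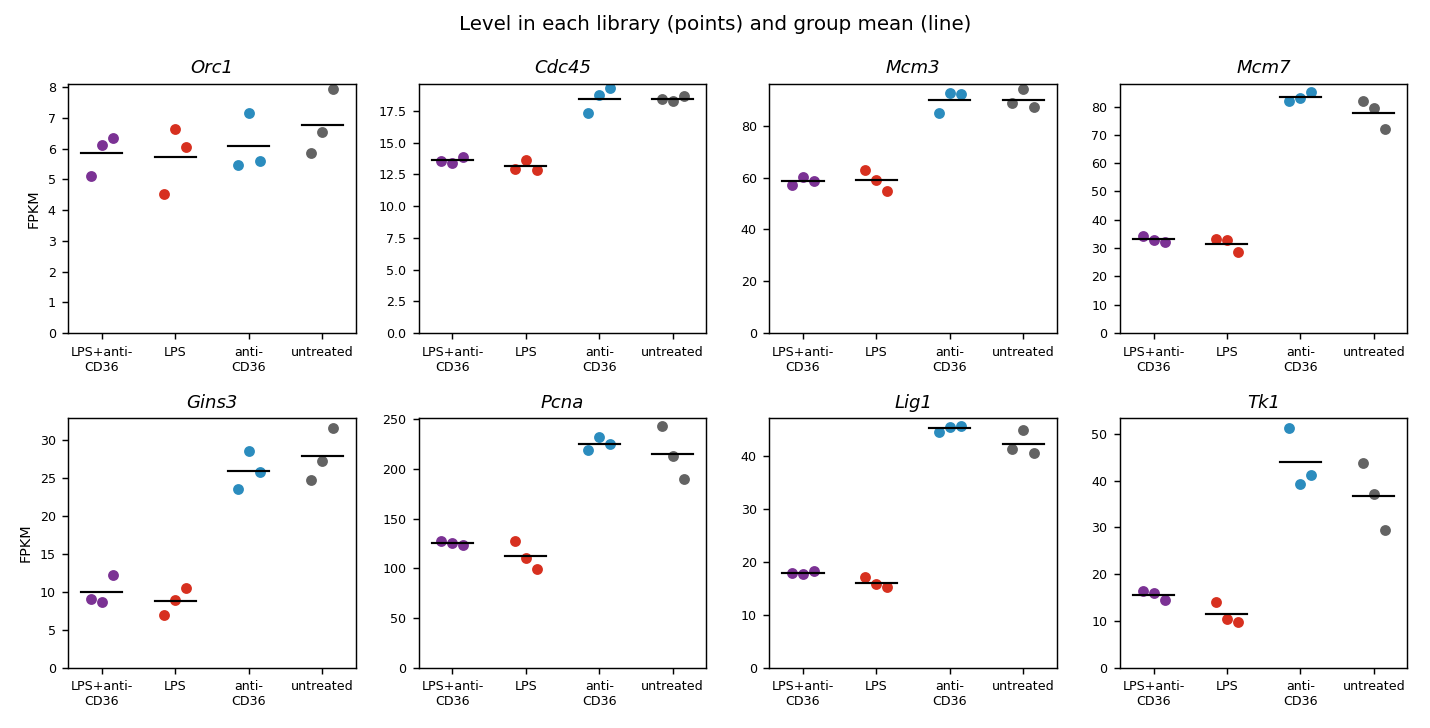
Level in FPKM of 8 of the genes in each library (points) with the group mean (line), each panel on its own axis from 0. Orc1 overlaps between groups, Cdc45 and Mcm3 are moderately lower with LPS, and the gap is wider for Mcm7, Gins3, Pcna, Lig1 and Tk1, whose groups with and without LPS do not overlap.

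In antibody-treated cells LPS gave a similar picture, measured in the 6 other libraries. In LPS+anti-CD36 against anti-CD36 libraries, 38 of the 39 genes fell and none rose (97.4% lower, where 31.3% of all genes tested were called lower, 16.3% higher and 47.5% in either direction). Levels ran between 35.4% and 96.4% of the anti-CD36 mean, with a median of 53.6%, and the median change was -0.84 against -0.12 over all genes tested. In 38 of the 39 the groups did not overlap, which held in this direction for 42.3% of all genes tested. Orc1 again was the exception, with 5.12, 6.10 and 6.35 FPKM in LPS+anti-CD36 libraries and 5.46, 7.17 and 5.59 FPKM in anti-CD36 libraries (-0.04 ± 0.14, adjusted p = 0.841). Median scaling gave 36 lower (Pold2 and Rpa3 were lost), with all genes at 2250 higher and 2211 lower in place of 1670 and 3212. Pold2 and Rpa3 were also lost without LPS+anti-CD36 replicate 3, Pold2 without anti-CD36 replicate 1 and Rfc1 without anti-CD36 replicate 2, with adjusted p up to 0.0919 over these 3 genes' settings.

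Among the licensing genes in this pair of groups, Mcm7 fell the most, with 34.4, 33 and 32.3 FPKM in LPS+anti-CD36 libraries and 81.9, 82.9 and 85.3 FPKM in anti-CD36 libraries (-1.30 ± 0.080, adjusted p = 1e-07). Mcm5 (-1.10 ± 0.11) and Mcm6 (-1.02 ± 0.099) came next. Gins3 led the firing genes, with 9.07, 8.62 and 12.3 FPKM in LPS+anti-CD36 libraries and 23.5, 28.6 and 25.8 FPKM in anti-CD36 libraries (-1.31 ± 0.16, adjusted p = 2.74e-05). Gins2 (-1.17 ± 0.16) and Gins1 (-1.11 ± 0.087) followed it. Among the polymerases, Pole2 averaged 3.95 ± 0.435 FPKM in LPS+anti-CD36 and 8.79 ± 0.753 FPKM in anti-CD36 libraries (-0.99 ± 0.12, adjusted p = 2.64e-05). Pole (-0.92 ± 0.12) and Pola1 (-0.89 ± 0.19) fell by similar amounts. Of the clamp genes, Rfc5 averaged 11.8 ± 0.469 FPKM in LPS+anti-CD36 and 28.8 ± 1.18 FPKM in anti-CD36 libraries (-1.21 ± 0.10, adjusted p = 1.37e-06). Rfc2 (-0.94 ± 0.089) and Pcna (-0.84 ± 0.11) were next among them.

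Lig1 had 17.9, 17.8 and 18.1 FPKM in LPS+anti-CD36 libraries and 44.5, 45.4 and 45.5 FPKM in anti-CD36 libraries (-1.28 ± 0.070, adjusted p = 3.84e-08), again the smallest adjusted p of the 39. Fen1 changed by -0.75 ± 0.14. The RPA genes changed by -0.97 ± 0.098 for Rpa2, -0.76 ± 0.087 for Rpa1 and -0.51 ± 0.15 for Rpa3. Tk1 had 16.4, 15.9 and 14.4 FPKM in LPS+anti-CD36 libraries and 51.2, 39.2 and 41.3 FPKM in anti-CD36 libraries (-1.43 ± 0.16, adjusted p = 1.52e-05). Tyms (-0.84 ± 0.083) and Rrm1 (-0.90 ± 0.15) were also lower, as was Rrm2 (-0.50 ± 0.090). The summed helicase level was 233 ± 2.03 FPKM in LPS+anti-CD36 libraries and 451.6 ± 12.8 FPKM in anti-CD36 libraries.

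With the antibody added to LPS, 6 of the 39 genes rose and none fell (15.4% higher, where 7.35% of all genes tested were called higher and 15.5% in either direction). These were Tyms, Orc6, Rpa2, Rrm2, Rfc2 and Gins1, so thymidylate and ribonucleotide reduction genes stood beside an origin subunit, a single-strand binder, a clamp loader and a GINS gene. The rises were small, at 0.29 to 0.40 on the log2 scale, and all 6 genes stayed under their level in both groups without LPS. In all, 31 of the 39 estimates were positive, where 5367 of all 10277 genes tested had a positive one. The median change was 0.16, against 0.02 over all genes tested. In 13 of the 39 (33.3%) all LPS+anti-CD36 libraries were above all LPS libraries, which held for 19.7% of all genes tested. In none of the 39 were they all below, which held for 16.4% of all genes tested. The comparison shares the LPS libraries with that of LPS against untreated cells.

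Tyms had 8.14, 7.96 and 8.11 FPKM in LPS+anti-CD36 libraries and 6.49, 5.76 and 5.62 FPKM in LPS libraries, without overlap (0.39 ± 0.083, adjusted p = 0.0116). Orc6 had 21.5, 22.1 and 22.3 FPKM in LPS+anti-CD36 libraries and 16.0, 18.1 and 17.8 FPKM in LPS libraries (0.33 ± 0.079, adjusted p = 0.0191). Rpa2 had 23.5, 22.0 and 22.7 FPKM in LPS+anti-CD36 libraries and 18.7, 16.5 and 15.8 FPKM in LPS libraries (0.40 ± 0.098, adjusted p = 0.0196). In each of these the libraries with the antibody were all higher. Rrm2 had 60.7, 65.3 and 66.7 FPKM in LPS+anti-CD36 libraries and 45.5, 53.2 and 51.8 FPKM in LPS libraries (0.35 ± 0.090, adjusted p = 0.0244). Rfc2 had 12.0, 11.7 and 10.6 FPKM in LPS+anti-CD36 libraries and 9.48, 8.12 and 8.99 FPKM in LPS libraries (0.34 ± 0.089, adjusted p = 0.0283). Gins1 had 13.5, 15.9 and 16.1 FPKM in LPS+anti-CD36 libraries and 12.2, 12.3 and 12.1 FPKM in LPS libraries (0.29 ± 0.087, adjusted p = 0.0472). These 3 did not overlap either, and LPS+anti-CD36 replicate 1 was the lowest of its group for Gins1 and Rrm2 and the highest for Rfc2.

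The count of 6 depended on single libraries. It was 1 without LPS+anti-CD36 replicate 1, 1 without replicate 2 and 2 without replicate 3 of that group. It was 15 without LPS replicate 1, where Pola1 was also called lower, then 1 without LPS replicate 2 and 2 without LPS replicate 3. In the fit to only the groups compared it was 3. Over all genes tested the split of 755 higher and 837 lower moved as well. Without LPS+anti-CD36 replicates 1, 2 and 3 this split was 252 and 362, 231 and 320, and 381 and 441. Without LPS replicates 1, 2 and 3 it was 1972 and 1998, 258 and 312, and 322 and 413. With only the groups compared it was 394 and 546. Under TPM scaling 2 of the 39 were called higher (Rpa2 and Tyms), and the median over all genes moved to -0.08. All genes then split into 369 higher and 788 lower. The change followed gene length, with a Spearman rho of -0.50 over 10093 genes and -0.34 over the 39, so shorter genes were higher with the antibody. With GC content the rho was 0.39 over 10093 genes and 0.20 over the 39. With the length and GC trends removed, an alternative chosen after seeing the data, 1233 of all genes tested were called higher and 1284 lower. Of the 39, 8 were called higher and Gins1 was lost. A further 7 genes had an unadjusted p under 0.05 only, all higher, among them Pola2 (0.21, adjusted p = 0.0521) and Tk1 (0.43, adjusted p = 0.0845). With the 6 this made 13 of the 39 (33.3%), near the 33.8% of all genes tested with an unadjusted p under 0.05 in either direction, made up of 17.8% higher and 16.0% lower. At the other end Pola1 had 3.18, 3.54 and 4.38 FPKM in LPS+anti-CD36 libraries and 3.74, 5.43 and 6.95 FPKM in LPS libraries, which overlapped (-0.42 ± 0.19, adjusted p = 0.154).

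**Figure D4:**
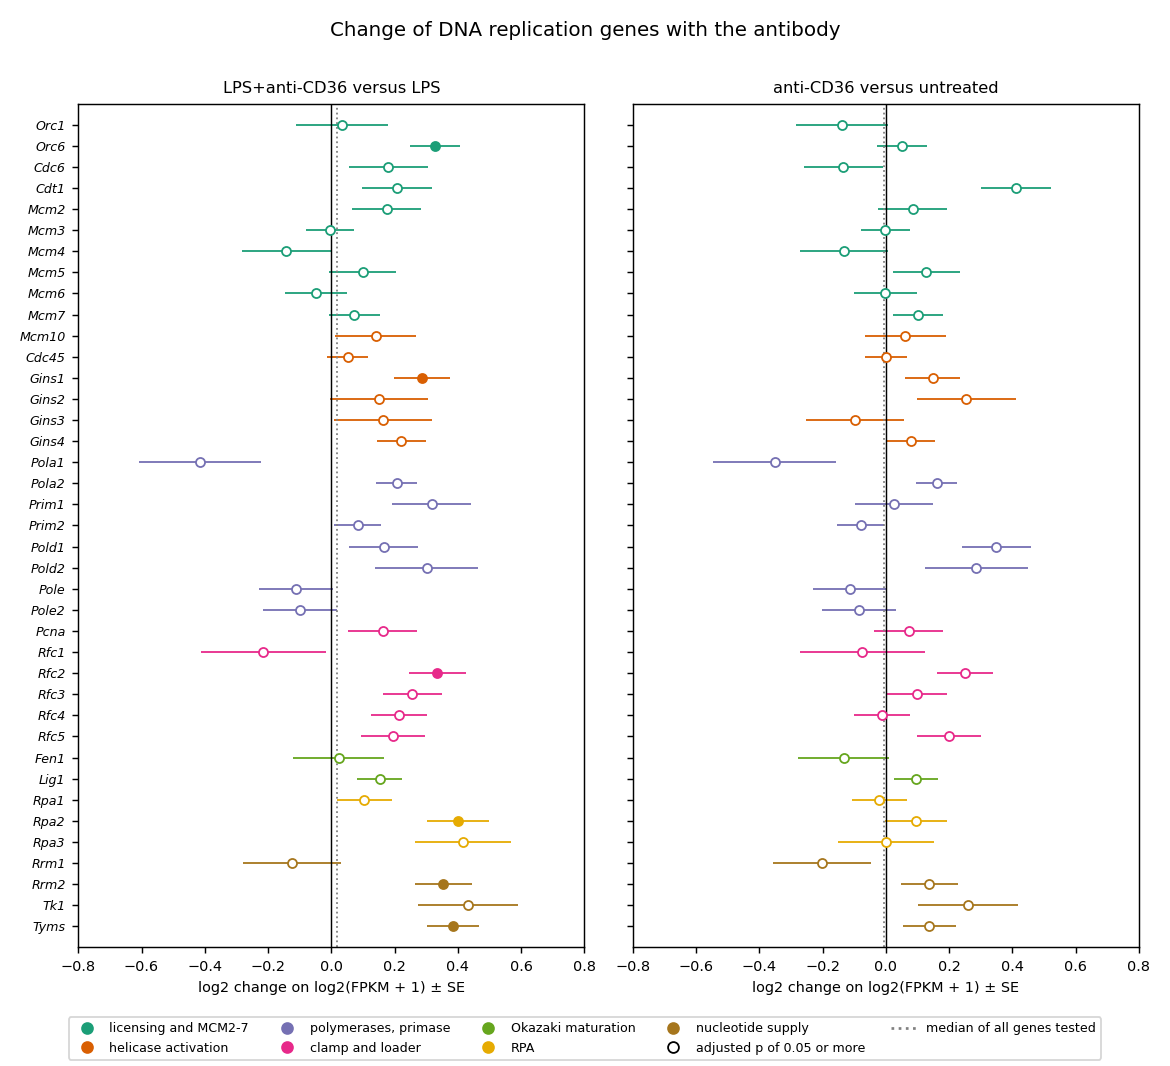
Log2 change of each of the 39 genes on the log2(FPKM + 1) scale in LPS+anti-CD36 against LPS libraries (left) and in anti-CD36 against untreated libraries (right), with bars for the SE; filled points have an adjusted p under 0.05 and the dotted line is the median of all genes tested. On the left 6 points are filled and all lie right of 0, and on the right none is filled.

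The ratio of the ribonucleotide reductase subunits, Rrm2 to Rrm1, was 3.95, 3.90 and 3.56 in LPS+anti-CD36 libraries and 3.21, 2.60 and 2.36 in LPS libraries. It was 2.85, 2.70 and 2.94 in anti-CD36 libraries and 2.33, 2.26 and 2.08 in untreated libraries. It was thus higher with the antibody in every library of either pair, and the pair was picked after the values were seen. The Rrm1 gene model is 11012 bases long and that of Rrm2 2771, and both antibody comparisons had a Spearman rho of change with gene length over all genes of -0.50 with LPS and -0.51 without it. With GC content the rho over all genes was 0.39 with LPS and 0.57 without it. The part of these trends in the ratio was not tested. Rrm1 itself averaged 17.0 ± 1.71 FPKM in LPS+anti-CD36 libraries and 18.8 ± 4.12 FPKM in LPS libraries.

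With the antibody alone, none of the 39 genes was called in limma (0 of 39, where 0.341% of all genes tested were called), and 4 (10.3%) had an unadjusted p under 0.05, all higher, against 19.2% of all genes tested. Their median change was 0.06 against -0.01 over all genes tested, with 24 positive and 15 negative estimates and 95% intervals between -0.78 and 0.65. Over all 10276 genes tested, 4988 estimates were positive and 5279 negative. Cdt1 had 42.2, 34.4 and 38.8 FPKM in anti-CD36 libraries and 29.4, 30.5 and 26.0 FPKM in untreated libraries, without overlap (0.41 ± 0.11, adjusted p = 0.129). Pold1 had 22.4, 19.4 and 19.8 FPKM in anti-CD36 libraries and 17.2, 16.1 and 14.4 FPKM in untreated libraries, also without overlap (0.35 ± 0.11, adjusted p = 0.157). The other 2 were Rfc2 (0.25, adjusted p = 0.187) and Pola2 (0.16, adjusted p = 0.225). In 7 of the 39 the anti-CD36 libraries were all higher and in 1 (Pola1) all lower, which held for 12.1% and 10.5% of all genes tested. The change was related to GC content, with a Spearman rho of 0.61 over the 39 and 0.57 over 10092 genes. With gene length the rho was -0.51 over 10092 genes but only -0.08 over the 39. With the GC and length trends removed, Cdt1 and Pold1 were called higher, where 167 of all genes tested were called higher and 250 lower. Without that removal the split over all genes was 15 higher and 20 lower, and 11 higher and 7 lower under TPM scaling.

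The difference between the LPS effect with and without the antibody was called for none of the 39 genes in limma, where 1.28% of all genes tested were called, 0.496% as higher and 0.788% as lower. The 2 with an unadjusted p under 0.05 were Orc6 (0.28 ± 0.11, adjusted p = 0.469) and Rpa2 (0.31 ± 0.14, adjusted p = 0.572), both with a smaller fall in antibody-treated cells. They made up 5.13% of the 39, a smaller share than the 8.6% of all genes tested (4.17% higher and 4.44% lower). The estimate was positive for 27 of the 39 and for 5532 of all 10276 genes tested. The median was 0.09 for the 39 against 0.01 over all genes tested. The SE of this difference was 0.092 to 0.28 over the 39 genes, with a median of 0.15, and no 95% interval reached below -0.75 or above 0.89. All genes called split into 51 higher and 81 lower, and into 30 and 79 under TPM scaling.

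In the order of levels Pcna stood first in every group and Fen1 last. Mcm3, Mcm5 and Rrm2 took the next 3 places in each group, in changing order. Cdc45 ranked 20 in LPS libraries and 25 in untreated libraries, and Tk1 22 in LPS and 15 in untreated libraries. Orc1, the only gene not called with LPS, ranked 32 in LPS libraries and 38 in untreated libraries. The median coefficient of variation of the 39 within a group was 5.74% in LPS+anti-CD36, 12.7% in LPS, 6.28% in anti-CD36 and 9.59% in untreated libraries, and over all genes tested 6.51% in LPS+anti-CD36, 14.8% in LPS, 9.70% in anti-CD36 and 12.7% in untreated libraries.

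Of 39 further replication genes tested, which lie outside the set above, 26 fell and 4 rose in LPS against untreated libraries, with a median change of -0.79. These were 66.7% lower and 10.3% higher, where 33.1% of all genes tested were called lower and 16.6% higher. Gmnn, which encodes geminin, the inhibitor of CDT1, averaged 22.5 ± 1.02 FPKM in LPS and 59.3 ± 1.19 FPKM in untreated libraries (-1.36 ± 0.085, adjusted p = 1.15e-07). Pole3, a small subunit of polymerase epsilon, and Recql4, a helicase that helps start replication, changed by -1.11 and -0.99. The 4 that rose were named after their values were seen. Samhd1, which breaks down deoxynucleotides, averaged 34.0 ± 2.54 FPKM in LPS and 19.3 ± 1.81 FPKM in untreated libraries (0.79 ± 0.092, adjusted p = 2.37e-05). Rrm2b (0.67, adjusted p = 0.00388), the reductase subunit used outside S phase, Pold4 (0.60, adjusted p = 0.014), a small subunit of polymerase delta, and Dck (0.29, adjusted p = 0.0367), a salvage kinase, also rose.

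All 11 genes of chromatin assembly and maintenance methylation fell, with a median of -1.05. Dnmt1, the methyltransferase that copies CpG methylation behind the fork, averaged 22.8 ± 1.28 FPKM in LPS and 51.5 ± 3.54 FPKM in untreated libraries (-1.14 ± 0.072, adjusted p = 1.35e-07). The histone chaperone genes Chaf1a, Chaf1b and Asf1b changed by -1.16, -1.13 and -1.47. Of 27 genes of E2F and RB control, 17 fell (63%) and 4 rose (14.8%), which were Cdkn1a, Cdk6, Ccnd1 and Ccnd2. Over all genes tested 33.1% were called lower and 16.6% higher. Cdkn1a, which encodes the cyclin-dependent kinase inhibitor p21, averaged 280 ± 55.4 FPKM in LPS and 44.0 ± 4.71 FPKM in untreated libraries (2.63 ± 0.13, adjusted p = 2.09e-08). E2f8, an E2F repressor, changed by -1.59, Tfdp2, an E2F partner, by -1.52, and Cdkn2c, another kinase inhibitor gene, by -1.65. Of 8 S phase checkpoint genes 5 fell (62.5%). Among them were Wee1 (-1.87 ± 0.078, adjusted p = 3.78e-09) and Chek1 (-1.02 ± 0.15, adjusted p = 0.00017), both kinases that restrain CDK activity. All 30 mitosis genes fell, with a median of -1.64, and Ccna2, the S and G2 cyclin, averaged 13.9 ± 0.761 FPKM in LPS and 66.5 ± 1.76 FPKM in untreated libraries (-2.18 ± 0.071, adjusted p = 4.67e-10).

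**Figure D5:**
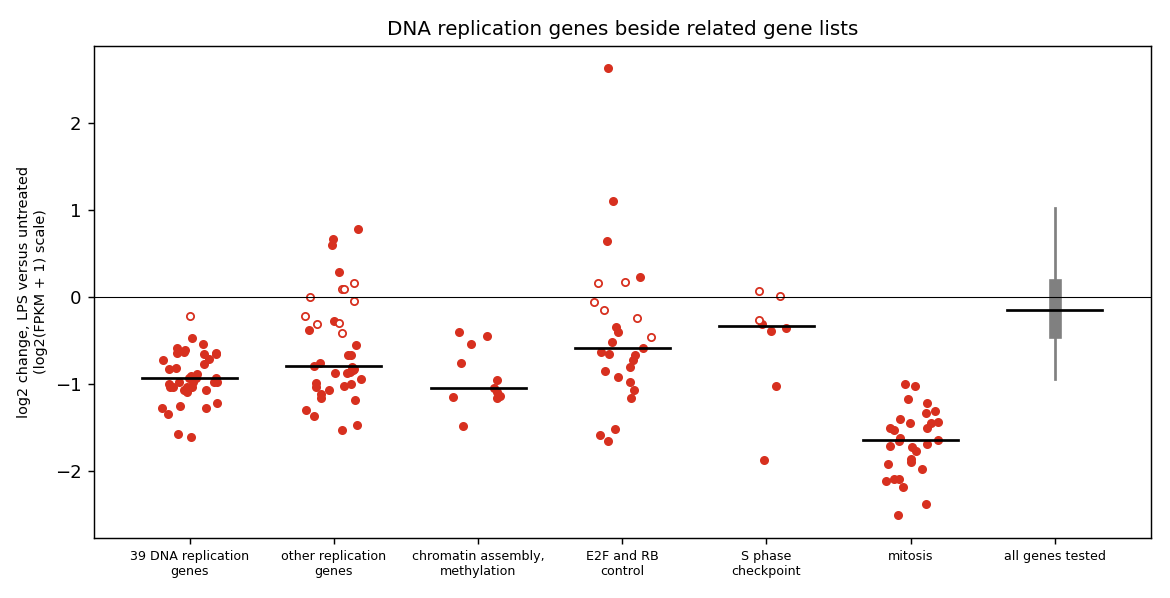
Log2 change in LPS against untreated libraries, on the log2(FPKM + 1) scale, for each gene of the 39 and of 5 related lists (points, open where the adjusted p is 0.05 or more) with the list median (line); the last column gives the median, the middle 50% (thick) and the middle 90% (thin) of all genes tested. The 39 lie between -1.61 and -0.21, the mitosis genes between -2.50 and -0.997, and the highest point is Cdkn1a at 2.63.

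In LPS+anti-CD36 against anti-CD36 libraries the same lists gave 24 lower and 4 higher of 39 further replication genes, 10 of 11 chromatin genes lower, and 17 lower and 3 higher of 27 E2F and RB genes. They gave 3 of 8 checkpoint genes (37.5%) and 30 of 30 mitosis genes lower, where 31.3% of all genes tested were called lower and 16.3% higher. In LPS+anti-CD36 against LPS libraries, 1 further replication gene rose, Rnaseh2a (0.43 ± 0.11, adjusted p = 0.0292), a subunit of the nuclease that removes RNA from DNA. Of the 11 chromatin genes 4 rose, Asf1a (0.40, adjusted p = 0.0102), Asf1b (0.47, adjusted p = 0.0196), Chaf1b (0.30, adjusted p = 0.0302) and Chaf1a (0.26, adjusted p = 0.0467). Of the 27 E2F and RB genes 2 rose (Ccne1 and Cdc25a) and 5 fell (Cdkn1b, Cdk6, Rb1, Rbl2 and Cdkn1a). Cdkn1b, which encodes the kinase inhibitor p27, averaged 11.2 ± 0.176 FPKM in LPS+anti-CD36 and 17.7 ± 2.01 FPKM in LPS libraries (-0.61 ± 0.11, adjusted p = 0.00399). Ccne1, the cyclin that drives entry into S phase, averaged 18.9 ± 1.21 FPKM in LPS+anti-CD36 and 13.4 ± 1.44 FPKM in LPS libraries (0.46 ± 0.095, adjusted p = 0.00935). Cdc25a, the phosphatase that activates CDKs, changed by 0.35 (adjusted p = 0.0171) and Cdk6, a G1 kinase, by -0.57 (adjusted p = 0.0199). Of the 30 mitosis genes 2 rose, Birc5 (0.61, adjusted p = 0.00594) and Ccnb2 (0.34, adjusted p = 0.026), and Bub1 fell (-0.80, adjusted p = 0.0161). The shares called higher were 2.56% of the further replication genes, 36.4% of the chromatin genes, 7.41% of the E2F and RB genes and 6.67% of the mitosis genes, against 7.35% of all genes tested, and the shares called lower were 18.5% of the E2F and RB genes and 3.33% of the mitosis genes, against 8.14%. None of these lists had a called gene in anti-CD36 against untreated libraries or in the difference of LPS effects (limma). Over all genes tested 0.341% and 1.28% were called there, and 19.2% and 8.6% had an unadjusted p under 0.05. Such a p was found for 4 (10.3%) and 0 of the further replication genes and 1 (9.09%) and 1 (9.09%) of the chromatin genes. It was found for 6 (22.2%) and 4 (14.8%) of the E2F and RB genes. For the checkpoint genes the counts were 0 and 1 (12.5%), and for the mitosis genes 2 (6.67%) and 5 (16.7%).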

How the data were processed

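The authors deposited 1 table of FPKM values, with 1 column for each of the 12 libraries and rows named by symbol alone. HISAT2 2.0.5 and the genome builds hg38 and mm39 are listed, per the submitters' processing notes, with no role for either build. The counting tool, its annotation and use of strand are not given in the sources used here, so reads of overlapping genes cannot be assigned further. A label field names a droplet platform, while the labels' protocols describe RNA extracted in bulk, as the table's columns do. Depth was recovered from the FPKM steps at GENCODE M21 (GRCm38) exon lengths, where 93.57% to 94.08% of the entries checked came out whole within 0.005 reads. In every library entries with 2 reads (692 to 811) outnumbered those with 1 (285 to 435), so mates of a pair may have been counted apart.

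Values were tested as log2(FPKM + 1) with limma 3.58.1 in R 4.3.3 (trended variance, all 4 groups in 1 fit, no block), on genes with at least 1 FPKM in 3 libraries, with Benjamini-Hochberg adjustment over all of them at 0.05. The script was tested on simulated data. Tables were handled with Python 3.11.15, pandas 2.3.3, numpy 2.4.6 and scipy 1.17.1, and figures drawn with matplotlib 3.10.9. Left out were 82 entries that repeat a symbol. Il6 was left out too, except in LPS+anti-CD36 versus LPS, because its values in anti-CD36 and untreated libraries equalled those of another entry; 10276 genes remained elsewhere. The 39 genes and the other lists were chosen with earlier results of these data known. Named with values were genes called in either antibody comparison or in the difference of LPS effects, the 3 of largest change per role and any not called in the LPS comparisons, and up to 4 of smallest p per other list, of which 1 gene is not reported here; further genes are named for completeness. Alternatives covered the pseudocount, the filter, TPM and median-of-ratios scaling, the groups in the fit, the variance trend, a replicate block, GC and length trends, and leaving out each library. For the cell-type marker lists only levels are given here, though the 8 macrophage markers were also among the genes tested.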

Additional observations from a re-analysis of the deposited data

How the results depend on the processing

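The 38 falls in LPS against untreated libraries numbered 36 to 39 over 23 alternative settings, and those in LPS+anti-CD36 against anti-CD36 libraries 36 to 38. Of 896 gene values each under these settings, 15 and 6 lost the call, 1 and 0 gained it, and no called value of any comparison changed sign. The antibody comparisons were less settled. In LPS+anti-CD36 against LPS the 6 rises were 2 under TPM scaling, 3 with only the groups compared, and 1 to 15 when 1 library was left out, with 0 to 1 falls. Over all genes tested the 755 rises were 369, 394 and 231 to 1972 in the same settings. The 837 falls were 788, 546 and 312 to 1998. Of 896 values of the 39 genes in this comparison 37 lost and 37 gained the call. In anti-CD36 against untreated libraries 9 of 896 gene values gained the call, with 2 rises when GC and length trends were removed, an alternative chosen after seeing the data. Over all genes tested that alternative gave 167 rises and 250 falls.

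Same-numbered libraries did not all deviate together: correlations of their deviations ran between 0.45 and 0.78 for replicate 1, -0.32 and 0.43 for replicate 2, and -0.07 and 0.81 for replicate 3, so the numbers were not taken to pair them. With a replicate block, 13 of the 39 rose in LPS+anti-CD36 against LPS and 2 in anti-CD36 against untreated libraries. Over all genes tested 1889 and 535 were then called higher, and 1757 and 629 lower. With the block and the GC and length trends removed, 16 and 4 of the 39 rose, with 1 fall in the second comparison. Of all genes tested 1811 and 407 were then called higher, and 1718 and 588 lower. In the difference of LPS effects 1 of the 39 (Prim1) was called with both, where 208 of all genes tested were higher and 344 lower.

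Over all genes tested, 35 were called in anti-CD36 against untreated libraries, 18 under TPM scaling, 0 with only the groups compared, 1164 with the replicate block, 995 with the block and trends removed, 417 with trends removed alone, and 1 to 131 without 1 library. For the difference of LPS effects 132 were called, 85 at 5 FPKM or more, 212 with the block, 552 with block and trends removed, 369 with trends removed, and 61 to 157 without 1 library. For LPS+anti-CD36 against LPS 1592 were called, 940 with only the groups compared, 3646 with the block, 3529 with block and trends removed, 2517 with trends removed, and 551 to 3970 without 1 library. Where a library is left out, its group keeps 2. Depth limits single values most for Fen1, with 172 reads at the least, and for Gins2 and Fen1 shared exons limit the level.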
